A study of Mus musculus with 2 samples.

Results

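The 9 genes described here carry iron into cells, hold it, recycle it from heme and let it out: Fth1, Ftl1, Ncoa4, Tfrc, Slc11a2, Slc11a1, Slc40a1, Cd163 and Hmox1. They were taken by symbol from the 32285 genes of the single-cell count tables, and all 9 were found once each. The cells came from digested hindlimb muscles (quadriceps and gastrocnemius) of female C57 Bl/6J mice at 24 months of age. The ATRA+agonist group received 3 intramuscular injections over a week of ATRA, the retinoic acid receptor ligand, with CD3254 (an agonist of RXRα) and BMS961 (an agonist of RARγ). The DMSO vehicle group received as many injections of the solvent. Injections went to the tibialis anterior, gastrocnemius and quadriceps, and mice recovered for 3 days after the last ones. Each group is 1 library made from the pooled cells of 2 mice, so no difference between groups could be tested against the spread between mice, and every interval below is a 95% interval for counting error only.

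Iron enters most cells bound to transferrin, which the transferrin receptor Tfrc takes up, and leaves endosomes through the metal transporter Slc11a2. Slc11a1 is the related transporter of phagosomes in macrophages and neutrophils. Iron not in use is stored in ferritin, a shell of heavy chains (Fth1) and light chains (Ftl1), and the cargo receptor Ncoa4 hands ferritin to lysosomes when iron is needed. Macrophages also recover iron from hemoglobin: Cd163 takes up hemoglobin bound to haptoglobin, Hmox1 (heme oxygenase) opens the heme ring, and Slc40a1 (ferroportin) is the known exporter of the freed iron. C57BL/6 strains are known to carry a nonfunctional allele of Slc11a1, so its transcript is not a measure of transport in these mice.

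Much of this system is set after transcription, through RNA hairpins that bind iron regulatory proteins when iron is scarce. Bound hairpins in a 5′ untranslated region (UTR) hold back translation, while bound hairpins in a 3′ UTR slow decay of the transcript. The hairpins are shown because they separate genes whose protein can move without their transcript, genes whose transcript itself answers to iron, and genes with neither kind of hairpin. The search, on the sense strand of spliced GENCODE transcripts (GRCm38), asked for an unpaired C, a strand of 5 bases, the loop CAGTGN of 6 bases, and 5 bases able to pair with the first strand, with G-T pairs and at most 1 mismatch allowed. Each sequence below has 27 bases, read 5′ to 3′ as DNA, with the loop in capitals.
Fth1, 5′ UTR, chr19:9982733-9982759, plus strand: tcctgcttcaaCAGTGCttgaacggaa
Ftl1, 5′ UTR, chr7:45459780-45459806, minus strand: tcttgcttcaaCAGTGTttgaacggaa
Slc40a1, 5′ UTR, chr1:45925466-45925492, minus strand: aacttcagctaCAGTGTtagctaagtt
Slc11a2, 3′ UTR, chr15:100395154-100395180, minus strand: gccatcagagcCAGTGTgtttctatgg
Tfrc, 3′ UTR, chr16:32631220-32631246, plus strand: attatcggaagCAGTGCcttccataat
Tfrc, 3′ UTR, chr16:32631599-32631625, plus strand: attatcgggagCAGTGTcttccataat
Tfrc, 3′ UTR, chr16:32631664-32631690, plus strand: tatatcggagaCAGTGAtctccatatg
Tfrc, 3′ UTR, chr16:32631711-32631737, plus strand: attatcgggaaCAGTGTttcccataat

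Fth1, Ftl1 and Slc40a1 thus held a hairpin in the 5′ UTR, and Tfrc held 4 and Slc11a2 held 1 in the 3′ UTR, the latter with 1 stem mismatch. No such letters were found in the UTRs of Ncoa4 (chr14:32159865-32179855), Slc11a1 (chr1:74375195-74386062), Cd163 (chr6:124304656-124330527) or Hmox1 (chr8:75093621-75100589), all on the plus strand. Among all annotated genes, 205 of 20883 with a 5′ UTR (0.982%) and 872 of 21005 with a 3′ UTR (4.15%) held a match of the same form. A match is a description of the letters and was not tested for binding. Slc11a2 is known to give transcripts with and without its hairpin, which counts per gene do not tell apart.

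The libraries held 10444 barcodes with 65197625 UMIs (ATRA+agonist) and 17394 barcodes with 109343486 UMIs (vehicle), a UMI being a tag that marks 1 captured RNA molecule. After filters, 6907 and 6953 cells remained, with medians of 4702 and 4847 UMIs per cell. The libraries shared 43 barcode sequences, 10 of them among kept cells. Clustering without the 9 genes gave 26 clusters, of which 7 classes named by markers had at least 100 cells in each library: 1744 and 1867 endothelial-like cells, 1332 and 1649 fibro-adipogenic progenitor (FAP)-like cells, 414 and 531 muscle stem cell (MuSC)-like cells, 521 and 400 macrophage-like cells, 162 and 498 tenocyte-like cells, 226 and 323 smooth muscle or pericyte-like cells, and 131 and 391 neural (glial)-like cells (ATRA+agonist first). Every marker fixed for these classes was enriched in its class in both libraries. Most endothelial-like cells with ATRA+agonist (1570) lay in the cluster led by Aqp1 and Kdr, which held 703 of the vehicle cells, while 1051 vehicle cells and 95 with ATRA+agonist lay in a cluster led by the interferon-response genes Cd274 and Gbp4. Levels are given in counts-per-million (CPM), the UMIs of a gene scaled to a common total for the class. They are not divided by transcript length, so they are compared between classes and libraries and never between genes.

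**Figure D1:**
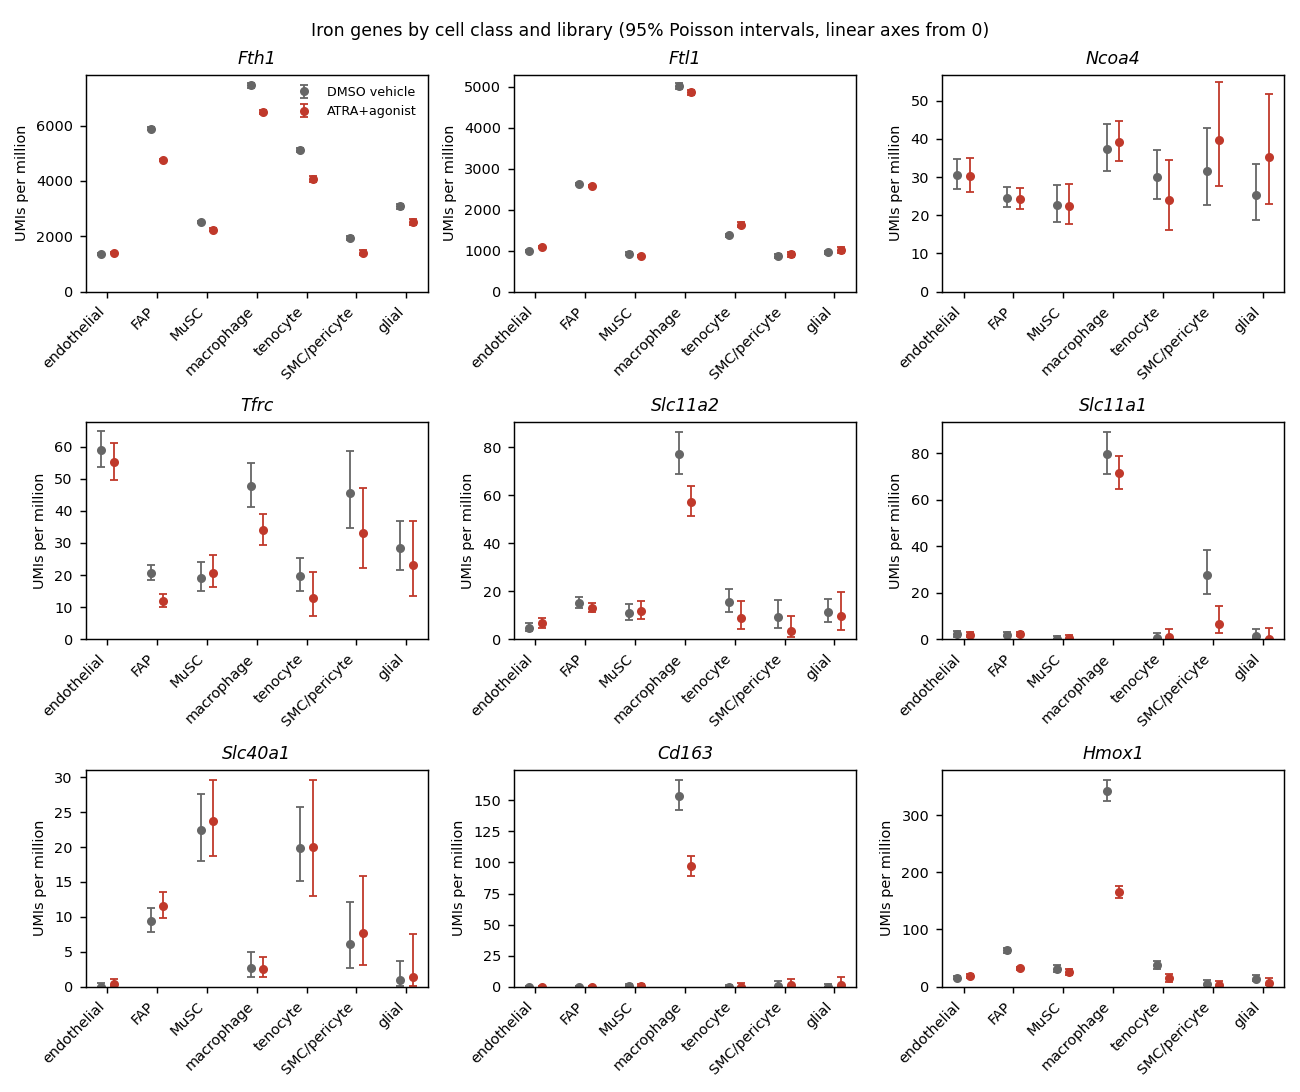
CPM of each of the 9 genes (panels, linear axes from 0) in 7 cell classes for the DMSO vehicle (gray) and ATRA+agonist (red) libraries, with 95% Poisson intervals. Ferritin, Slc11a2, Slc11a1, Cd163 and Hmox1 are highest in macrophage-like cells, Tfrc in endothelial-like cells and Slc40a1 in MuSC-like and tenocyte-like cells.

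Ferritin transcripts were abundant in every class. Fth1, the heavy chain with the iron-oxidizing site, was, among the 7 classes, highest in macrophage-like cells at 6496 CPM (interval 6431 to 6562) with ATRA+agonist and 7451 (7367 to 7536) with vehicle. FAP-like cells followed with 4760 and 5892, then tenocyte-like cells with 4082 and 5126, glial-like cells with 2514 and 3079, and MuSC-like cells with 2231 and 2520. Endothelial-like cells had 1409 and 1354, while the smooth muscle or pericyte-like class had 1413 and 1931. With ATRA+agonist these last levels of the order had overlapping intervals, while in the vehicle library all 7 classes were apart.

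Fth1 was lower with ATRA+agonist in 6 of 7 classes, with ratios that stayed under 1.5-fold. The log2 ratio of ATRA+agonist over vehicle was -0.31 in FAP-like cells (interval -0.32 to -0.29, from 64128 and 80550 UMIs) and -0.33 in tenocyte-like cells. It was -0.29 in glial-like cells, where it became 0.23 when cells with over 5000 genes were kept. It was -0.20 in macrophage-like and -0.18 in MuSC-like cells, and -0.45 (-0.55 to -0.35) in the smooth muscle or pericyte-like class. The last became -0.09 when only cells with under 10% mitochondrial UMIs were kept. In macrophage-like cells the ratio became -0.04 at cluster resolution 1.6. Endothelial-like cells differed in sign, with 0.06 (0.02 to 0.10), a value that became -0.03 when every cell was thinned to 1000 UMIs and -0.02 with median-of-ratios scaling. Within each endothelial-like cluster the interval of the Fth1 ratio included 0.

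Ftl1, the light chain, had the same class at the top, with treatment ratios nearer to 0 or above it. Macrophage-like cells held 4863 and 5014 CPM and FAP-like cells 2582 and 2623. Tenocyte-like cells held 1636 (1566 to 1709) with ATRA+agonist and 1373 (1331 to 1416) with vehicle, a log2 ratio of 0.25 (0.18 to 0.33) in the class where Fth1 stood at -0.33. In the other 6 classes the Ftl1 ratio lay between -0.10 (MuSC-like, 0.02 after thinning) and 0.13 (endothelial-like), and in macrophage-like cells -0.04 became 0.08 at cluster resolution 1.6. The ratio in endothelial-like cells was 0.03 without the cluster led by Cd274 and Gbp4. In the larger MuSC-like cluster it was -0.05 (-0.12 to 0.02).

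Near-copies bear on these counts. Ftl1-ps1, a processed copy of Ftl1, was assigned 1381 and 1424 UMIs in kept cells beside 90142 and 85997 for Ftl1. Fthl17a had 3 and 14 UMIs, and Fthl17b to Fthl17f had none. Reads that map equally well to Ftl1 and a copy may be lost in counting, so Ftl1 levels are uncertain to that extent. Ftl1 (chr7:45457944-45459884) also overlaps Gm22133 on its own strand.

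Ncoa4, the ferritin cargo receptor, lay in a narrow range of levels and did not differ between libraries beyond its intervals. Its levels ran from 22.5 CPM in MuSC-like cells with ATRA+agonist to 39.7 in smooth muscle or pericyte-like cells with ATRA+agonist. The interval of its log2 ratio included 0 in all 7 classes, and the narrowest, in FAP-like cells, ran from -0.25 to 0.20 around -0.02.

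Tfrc, which takes up transferrin-bound iron, was, among the 7 classes, highest in endothelial-like cells, and it was lower with ATRA+agonist in FAP-like cells. Outside the classes, an unnamed cluster led by Dach1 and Ccdc85a held 99.8 and 91.6 CPM on 23 and 45 UMIs. Endothelial-like cells held 55.2 CPM (49.6 to 61.2) with ATRA+agonist and 59.1 (53.7 to 64.8) with vehicle, which overlap. Macrophage-like cells held 34.0 (29.5 to 39.1) and 47.6 (41.1 to 54.9), and smooth muscle or pericyte-like cells 33.1 and 45.6. FAP-like cells held 12 (10.2 to 13.9) and 20.7 (18.4 to 23.3), which do not overlap.

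The log2 ratio of Tfrc in FAP-like cells was -0.79 (-1.08 to -0.51, from 161 and 283 UMIs). It was negative in each of the 4 FAP-like clusters: -0.86 in the cluster led by Cxcl14 and Smoc2, -0.56 in that led by Gdf10 and Fst, -0.58 in that led by Sema3c and Pi16 (interval including 0), and -1.41 in the small cluster led by Tenm2 and Apod. The ratio was -0.48 (-0.78 to -0.19) in macrophage-like cells and -0.61 (-1.51 to 0.21, from 16 and 58 UMIs) in tenocyte-like cells, where it was -0.26 in cells with under 0.1% hemoglobin UMIs. MuSC-like cells stood at 0.11 (-0.38 to 0.60), with 20.7 and 19.1 CPM. At an even depth of 1000 UMIs per cell, 0.977% of FAP-like cells (0.521 to 1.66) had a Tfrc UMI with ATRA+agonist and 2.06% (1.43 to 2.87) with vehicle. At full depth the shares were 9.16% and 12.2%.

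Slc11a2, the endosomal iron transporter, was concentrated in macrophage-like cells. They held 57.1 CPM (51.1 to 63.6) with ATRA+agonist and 77.0 (68.7 to 86.1) with vehicle, a log2 ratio of -0.43 (-0.66 to -0.20). FAP-like cells held 13.1 and 15.1, MuSC-like cells 11.7 and 10.8, and endothelial-like cells 6.53 and 4.83, each with an interval of the ratio that included 0. In tenocyte-like cells the ratio was -0.82 (-1.91 to 0.16) on 11 and 46 UMIs.

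Slc11a1, the phagosomal transporter, marked macrophage-like cells and the cluster led by S100a8 and S100a9. Macrophage-like cells held 71.5 CPM (64.8 to 78.7) and 79.8 (71.3 to 89.0), and the log2 ratio was -0.16 (-0.37 to 0.06). A cluster of 41 and 160 cells led by S100a8, S100a9 and Chil3, which carried leading markers of both neutrophils and monocytes and was therefore left unnamed, held 124 (89.4 to 168) and 138 (121 to 157). Endothelial-like cells, which should lack the gene, held 1.87 and 2.01, with median depths of 3424 and 3637 UMIs per cell against 10847 and 9568 in macrophage-like cells. Smooth muscle or pericyte-like cells held 6.61 (2.43 to 14.4) and 27.8 (19.5 to 38.5) on 6 and 36 UMIs, under the 50 UMIs asked for a call.

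Slc40a1, the only known exporter of iron from cells, was, among the 7 classes, highest in MuSC-like and tenocyte-like cells and close to absent from most macrophage-like cells. MuSC-like cells held 23.7 CPM (18.8 to 29.6) with ATRA+agonist and 22.4 (18 to 27.6) with vehicle. Tenocyte-like cells held 20.1 (13 to 29.6) and 19.9 (15.2 to 25.7), and these classes did not differ beyond their intervals. FAP-like cells held 11.6 (9.83 to 13.5) and 9.44 (7.88 to 11.2), and macrophage-like cells 2.56 (1.44 to 4.23) and 2.74 (1.37 to 4.91). In endothelial-like cells the gene had 2 and 0 UMIs, and the 0 allows a share of cells with a UMI of up to 0.161%.

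In the 3 classes with at least 50 UMIs of Slc40a1, the interval of the treatment ratio included 0. The log2 ratio was 0.08 (-0.37 to 0.54) in MuSC-like, 0.01 (-0.73 to 0.71) in tenocyte-like and 0.30 (-0.05 to 0.64) in FAP-like cells. UMIs of the gene were found in 14.5% and 11.1% of MuSC-like cells at full depth, against 1.73% and 1.5% of the more deeply covered macrophage-like cells.

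Cd163, the hemoglobin-haptoglobin receptor, was almost limited to macrophage-like cells and was lower with ATRA+agonist. Its level was 97.0 CPM (89.1 to 105) with ATRA+agonist and 154 (142 to 166) with vehicle, from 567 and 617 UMIs. These made up 94.5% and 97.6% of its UMIs in all kept cells. Endothelial-like cells had 0 UMIs in both libraries, and no other of the 7 classes had more than 3 in a library, while unnamed clusters led by Tenm2 and Sfrp5 (13 and 6 UMIs) and by Jchain and Igkc (14 and 2) held most of the rest. The log2 ratio was -0.67 (-0.83 to -0.50). It kept its sign in all 15 alternatives and was past 1.5-fold in 10 of them, the weakest being -0.32 after thinning to 1000 UMIs and -0.39 when cells with over 5000 genes were kept.

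Hmox1, which degrades heme, had the widest treatment ratios among pairs of a gene and a class with at least 50 UMIs. Macrophage-like cells held 165 CPM (155 to 176) with ATRA+agonist and 343 (325 to 361) with vehicle, a log2 ratio of -1.05 (-1.17 to -0.93, from 966 and 1375 UMIs). FAP-like cells held 31.8 (28.9 to 35.0) and 63.6 (59.5 to 68.0), a ratio of -1.0 (-1.17 to -0.83). Tenocyte-like cells held 14.4 (8.56 to 22.8) and 37.5 (30.8 to 45.1), a ratio of -1.38 (-2.18 to -0.65). In these 3 classes the 2 libraries' intervals do not overlap.

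In the other classes with at least 50 UMIs the interval of the Hmox1 ratio included 0. MuSC-like cells held 25.2 (20.1 to 31.2) and 31.5 (26.2 to 37.5) CPM of Hmox1, a ratio of -0.32 (-0.74 to 0.09). Endothelial-like cells held 18.2 (15 to 21.8) and 15.8 (13.1 to 19.0), a ratio of 0.20 (-0.18 to 0.58) that was -0.21 in cells with under 0.1% hemoglobin UMIs. Within FAP-like cells the ratio of Hmox1 was -1.36, -0.77, -0.72 and -1.01 in the clusters led by Cxcl14, Gdf10, Sema3c and Tenm2, the last with an interval that included 0.

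**Figure D2:**
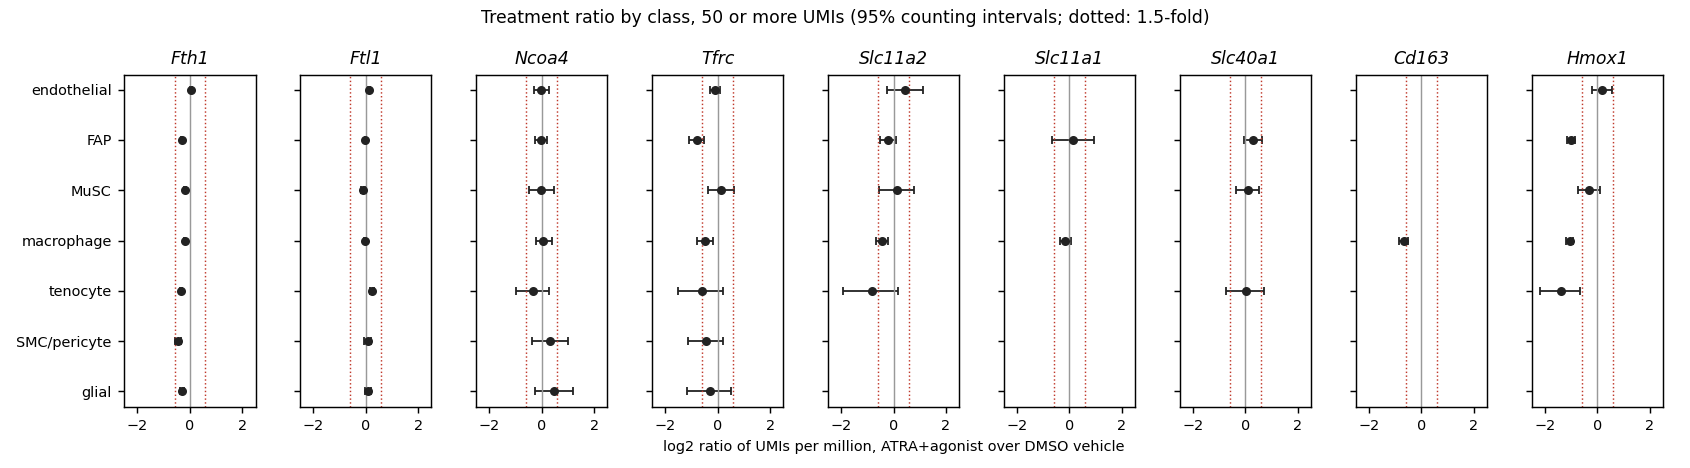
Log2 ratio of CPM, ATRA+agonist over DMSO vehicle, for each gene (panels) in each class (rows) where it had 50 or more UMIs over both libraries, with 95% counting intervals; dotted lines mark 1.5-fold. Hmox1 lies beyond the lower line in FAP-like (-1.0), macrophage-like (-1.05) and tenocyte-like (-1.38) cells, and no point lies beyond the upper line.

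Of 63 pairs of a gene and a class, 44 had at least 50 UMIs over both libraries. Among these, 7 were past 1.5-fold lower with ATRA+agonist and 0 were past 1.5-fold higher. The 7 were Hmox1 and Tfrc in FAP-like cells, Hmox1 and Cd163 in macrophage-like cells, and Hmox1, Tfrc and Slc11a2 in tenocyte-like cells, the last pair with intervals that included 0. The interval lay below 0 in 16, above 0 in 3 and included 0 in 25. The same share over all genes was not computed, so these 3 counts have no baseline. At the high counts of ferritin, even a small ratio can have an interval apart from 0, such as -0.02 for Ftl1 in FAP-like cells. Over all genes with at least 50 UMIs, the share past 1.5-fold lower was 3.92% in macrophage-like cells, where 2 of 8 members were, 6.55% in FAP-like cells (2 of 8 members) and 9.28% in tenocyte-like cells (3 of 7). It was 3.94% in endothelial-like cells, 4.55% in MuSC-like cells, 8.53% in smooth muscle or pericyte-like cells and 8.86% in glial-like cells, where none of 6, 7, 4 and 4 members were. The share past 1.5-fold higher was 6.12% (endothelial-like), 3.05% (FAP-like), 6.35% (MuSC-like), 3.7% (macrophage-like), 5.61% (tenocyte-like), 6.98% (smooth muscle or pericyte-like) and 6.44% (glial-like). The median log2 ratio over all genes lay between -0.02 and 0.08.

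Counts per cell show how the Hmox1 difference in macrophage-like cells was spread. No Hmox1 UMI was seen in 47.8% of the cells with ATRA+agonist (43.4 to 52.2) and in 30.3% with vehicle (25.8 to 35.0). Between 4 and 7 UMIs were seen in 11.1% and 19.8%, and between 8 and 15 in 1.73% and 9.0%. At 1000 UMIs per cell, 12.5% (9.78 to 15.7) and 27.0% (22.7 to 31.6) of the cells had a UMI. For comparison, 1.84% and 1.39% of endothelial-like cells had a UMI at the same depth.

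**Figure D3:**
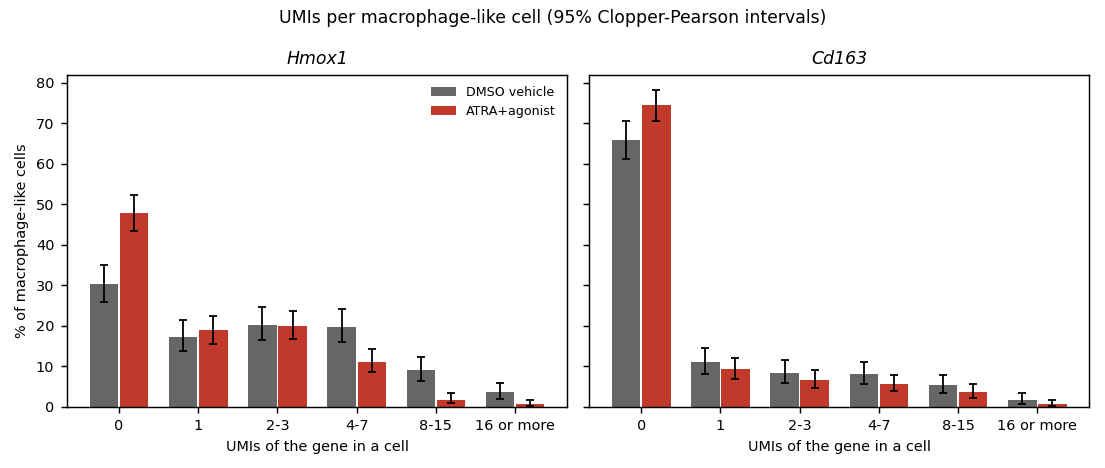
Percent of macrophage-like cells (521 with ATRA+agonist, 400 with DMSO vehicle) by the number of UMIs of Hmox1 or Cd163 in the cell, with 95% Clopper-Pearson intervals. For Hmox1 the red bar is higher at 0 UMIs (47.8% against 30.3%) and the gray bar is higher from 4 UMIs on.

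A few cells carried very many Hmox1 UMIs, and they were singled out after their values were seen. Of all kept cells, 4 had 50 or more. In the ATRA+agonist library, 2 macrophage-like cells had 108 and 106, against at most 39 in the macrophage-like cells of the vehicle library, and without the cell of most UMIs in each library the class ratio was -1.18 (-1.31 to -1.06).

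In the cluster led by S100a8 and S100a9, 1 ATRA+agonist cell held 221 of the 246 Hmox1 UMIs of that library. With it the cluster stood at 726 CPM against 524 in the vehicle library, a log2 ratio of 0.47 (0.26 to 0.68). Without the cell of most UMIs in each library the levels were 77.2 and 500, and the ratio was -2.70 (-3.33 to -2.12). The same cell held 1178 UMIs of Fth1 and 626 of Ftl1, the highest in the cluster, where the library's medians were 29.0 and 28.0, and hemoglobin made up 0.0342% of its 14599 UMIs. It also held 39 UMIs of Gclm, an enzyme of glutathione synthesis, and 22 of Txnrd1, a thioredoxin reductase, against medians of 0.0 and 1.0.

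Macrophage-like cells were divided by detection of Lyve1 and Folr2, which mark resident macrophages of many tissues. Both genes were seen in 53 cells (10.2%) with ATRA+agonist and 61 (15.3%) with vehicle, neither in 373 (71.6%) and 236 (59.0%), and only 1 of them in 95 (18.2%) and 103 (25.8%). The division rests on detection, so cells near the line can fall on either side of it. Cd163, Tfrc, Hmox1, Ncoa4 and Ftl1 were higher in cells with both genes than in cells with neither, in both libraries at full depth. Divided after thinning to 1000 UMIs, only 13 and 12 cells had both genes, and in the vehicle library the log2 ratio of both over neither was then -0.16 for Hmox1 on 4 UMIs in those cells and -0.12 for Ftl1 on 53, while Ncoa4 had 0 UMIs there.

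Cd163 stood at 568 CPM (503 to 640) in cells with both genes and at 35.1 (29.8 to 41.1) in cells with neither, with ATRA+agonist. In the vehicle library the values were 673 (604 to 747) and 70.4 (60.4 to 81.6). Tfrc stood at 127 (97.5 to 164) against 18 (14.3 to 22.5) with ATRA+agonist and at 154 (122 to 192) against 24.4 (18.7 to 31.4) with vehicle. Ncoa4 stood at 81.5 against 27.4 and at 55.9 against 27.6.

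Slc40a1 had 13 of its 15 UMIs in the cells with both genes in the ATRA+agonist library. In the vehicle library 4 of 11 UMIs lay in those cells and 7 in cells with neither. Its highest macrophage-like cell alone held 7 UMIs with ATRA+agonist and 6 with vehicle, so these counts rest on few cells. The treatment ratio of Slc40a1 was 1.82 (0.12 to 3.89) in cells with both genes and -3.62 (-9.11 to -0.66) in cells with neither, on 13 and 4 and on 1 and 7 UMIs. Fth1 differed little, with log2 ratios of both over neither of -0.09 and -0.08, while Ftl1 stood at 0.36 and 0.44. Slc11a1 stood at 71.1 against 70.5 with ATRA+agonist (log2 ratio 0.01, interval -0.54 to 0.53). With vehicle it stood at 102 against 70.8 (log2 ratio 0.53, interval 0.06 to 0.98), so only that interval left out 0.

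The treatment ratio of Hmox1 was negative in all 3 groups of macrophage-like cells, and that of Cd163 was not. For Hmox1 it was -1.26 (-1.55 to -0.98) with both genes, -0.96 (-1.13 to -0.78) with neither and -0.49 (-0.71 to -0.28) with 1 of them. Without the cell of most Hmox1 UMIs in each library these became -1.20, -1.22 and -1.02. Divided after thinning to 1000 UMIs they were -0.12 (-2.54 to 2.31, on 4 and 4 UMIs), -1.42 and -0.24. For Cd163 it was -0.24 (-0.48 to -0.01) with both genes, -1.0 (-1.33 to -0.68) with neither and 0.63 (0.24 to 1.02) with 1 of them, where it was -0.23 when the cells were divided after thinning to 1000 UMIs. Tfrc, whose class ratio was -0.48, had intervals that included 0 in each group: -0.27, -0.44 and 0.25.

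**Figure D4:**
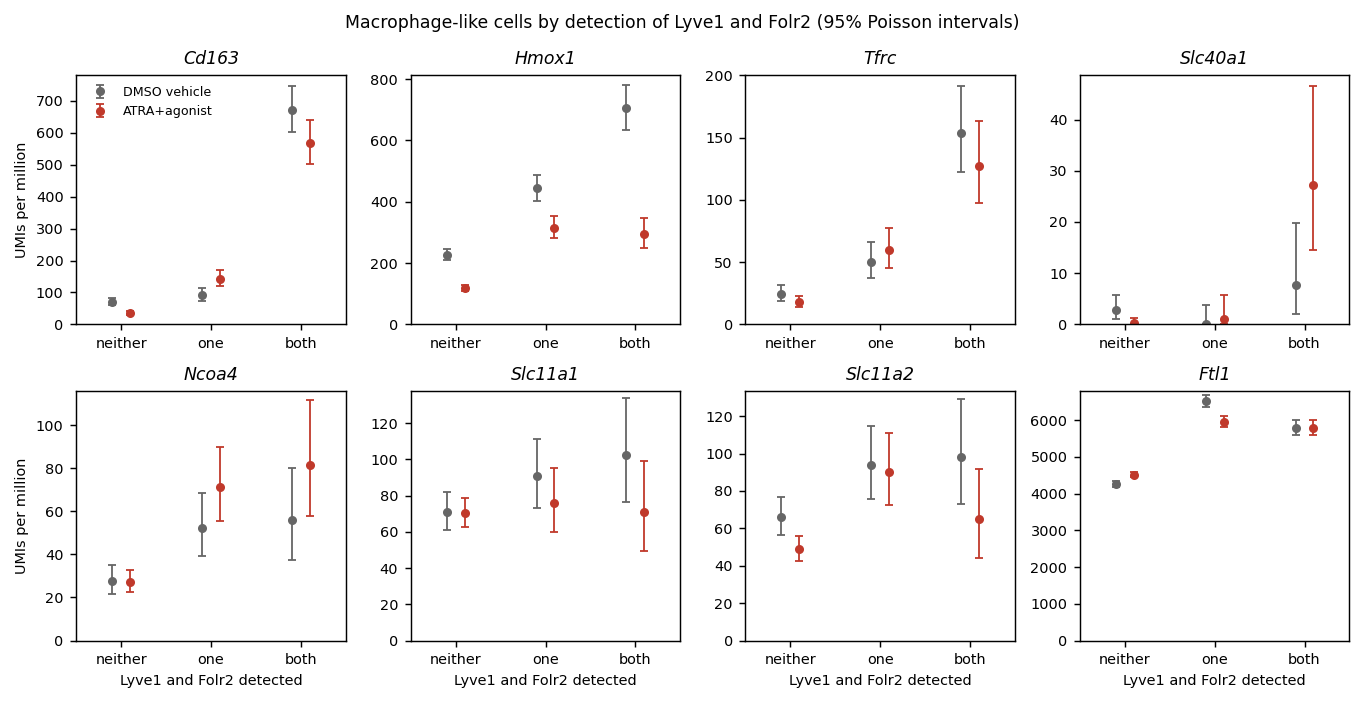
CPM of 8 of the genes in macrophage-like cells with neither, 1 or both of Lyve1 and Folr2 detected, for DMSO vehicle (gray) and ATRA+agonist (red), with 95% Poisson intervals and linear axes from 0. Cd163 and Tfrc are highest in cells with both genes in either library, and Hmox1 in cells with both genes is 295 with ATRA+agonist and 705 with vehicle.

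Detection within single macrophage-like cells was also compared. Hmox1 was seen in 62.4% of cells with a Cd163 UMI and 48.7% of cells without one with ATRA+agonist, and in 72.1% and 68.6% with vehicle. Tfrc was seen in 36.8% and 20.9%, and in 41.9% and 22.3%. These shares rise with the depth of a cell. At 1000 UMIs per cell, Hmox1 was seen in 23.8% and 11.5% with ATRA+agonist and in 35.6% and 25.9% with vehicle.

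Hemoglobin RNA moved with the groups in every class. Hemoglobin genes gave 244 to 494 CPM in the 7 classes with ATRA+agonist and 799 to 1352 with vehicle, log2 ratios of -1.79 to -1.45. Its part in the differences above was not tested. In cells with under 0.1% hemoglobin UMIs, which kept 96.7% and 70.8% of macrophage-like cells, the ratio of Hmox1 was -1.03 in macrophage-like, -1.04 in FAP-like and -1.54 in tenocyte-like cells, and that of Tfrc in FAP-like cells was -0.77. Cd163 stood at -0.45. Hemoglobin in the cells kept by this limit still differed, with medians of 0.0242% and 0.0663% of UMIs in macrophage-like cells.

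Barcodes with over 50% of their UMIs from hemoglobin genes were left out of the classes and read on their own. There were 2314 with ATRA+agonist (22.2% of barcodes) and 8125 with vehicle (46.7%). On a CPM scale of the UMIs that were not hemoglobin, Alas2, the first enzyme of heme synthesis in red cell precursors, stood at 23041 and 20896. On the same scale Ftl1 stood at 22143 and 15344, Fth1 at 9375 and 7992 and Ncoa4 at 1300 and 1271. The level of Ncoa4 over all barcodes was 46.7 and 99.5 on this scale, so it was far higher in hemoglobin-rich barcodes.

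Hmox1, Cd163, Slc11a1, Slc11a2 and Slc40a1 had 5, 2, 6, 3 and 1 UMIs in these barcodes with ATRA+agonist and 61, 12, 12, 25 and 15 with vehicle. The barcodes held 691334 and 2926607 non-hemoglobin UMIs. On the non-hemoglobin scale the 5 genes stood at 7.23, 2.89, 8.68, 4.34 and 1.45 CPM with ATRA+agonist. With vehicle they stood at 20.8, 4.10, 4.10, 8.54 and 5.13, so Slc11a1 was not lower with ATRA+agonist. Tfrc had 12 and 320 UMIs, or 17.4 and 109 CPM on that scale, a log2 ratio of -2.66 (-3.62 to -1.83). Its UMIs were found in only 0.519% of these barcodes with ATRA+agonist and 1.5% with vehicle. The Tfrc levels thus rest on a small share of the barcodes. The ratio was 0.53 (0.50 to 0.56) for Ftl1, 0.23 (0.19 to 0.27) for Fth1 and 0.03 (-0.07 to 0.14) for Ncoa4.

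**Figure D5:**
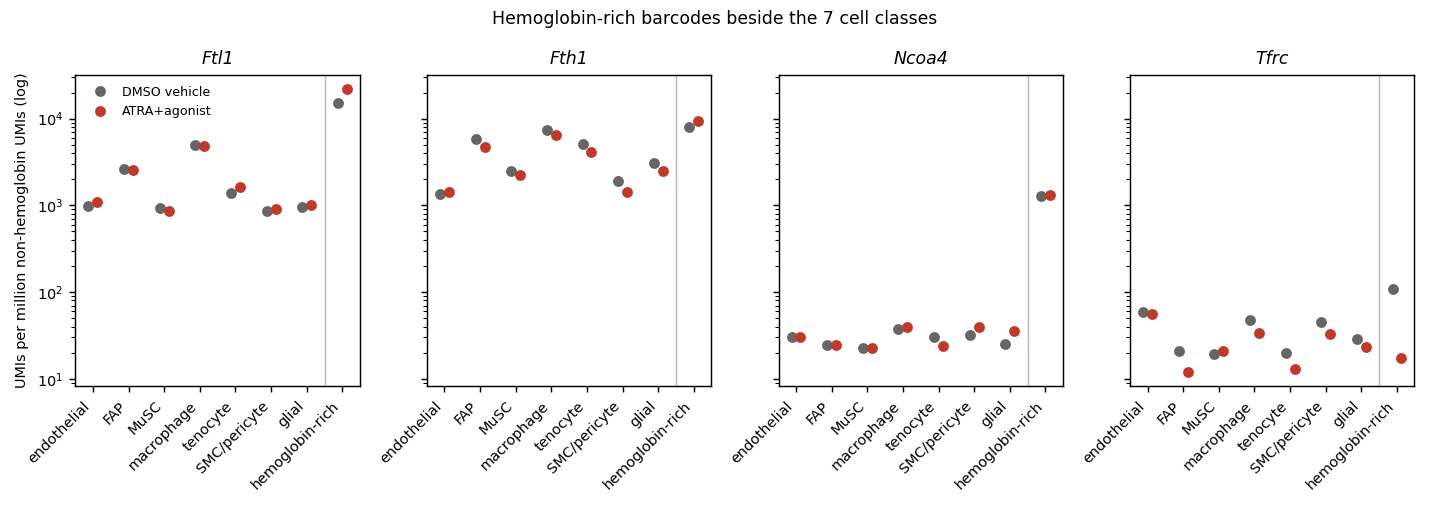
UMIs of Ftl1, Fth1, Ncoa4 and Tfrc as CPM of the non-hemoglobin UMIs (log axis) in the 7 classes and, right of the line, in barcodes with over 50% hemoglobin UMIs, for DMSO vehicle (gray) and ATRA+agonist (red). Ncoa4 stands at 1300 and 1271 in these barcodes, above every class, and Tfrc at 17.4 with ATRA+agonist and 109 with vehicle.

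Some cells outside the 7 classes had higher ferritin levels than macrophage-like cells, or other treatment ratios. An unnamed cluster of 147 and 166 cells led by Tenm2, Sfrp5 and Cldn1, with median depths of 1227 and 1983.5 UMIs, held 10256 and 10396 CPM of Fth1 (log2 ratio -0.02, interval -0.09 to 0.05). Its Ftl1 stood at 5834 CPM (5550 to 6129) with ATRA+agonist and 2611 (2475 to 2752) with vehicle, a log2 ratio of 1.16 (1.06 to 1.27). Higher with ATRA+agonist in that cluster were also Hmox1 at 0.81 (0.08 to 1.54, from 32 and 36 UMIs), Cd163 at 2.09 (0.60 to 3.78, from 13 and 6) and Slc40a1 at 3.30 (1.07 to 6.53, from 10 and 2). This cluster was singled out after its values were seen. Over both libraries, 6 of the 10 macrophage markers were enriched in it, though none was among its leading genes. The source of these UMIs was not tested. The cluster led by S100a8 and S100a9 held 9414 and 6507 CPM of Fth1, with the single high cell described above included. The 220 muscle fiber-like cells, all from the ATRA+agonist library, held 6581 CPM of Fth1 and 316 of Ftl1, the latter under every one of the 7 classes. The 623 B cell-like cells with ATRA+agonist held 50.6 of Tfrc (43.8 to 58.2) and had 1 UMI of Hmox1 and none of Cd163 or Slc40a1. The vehicle library had 31 B cell-like cells, which held 6 UMIs of Tfrc.

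A list of 53 other genes of iron and heme handling was read beside the 9. Among them ceruloplasmin (Cp), the copper oxidase that works with ferroportin, was past 1.5-fold lower with ATRA+agonist in 4 classes. Its log2 ratio was -1.73 (-2.09 to -1.39) in glial-like, -1.57 (-1.99 to -1.16) in endothelial-like, -0.82 in tenocyte-like and -0.76 in FAP-like cells, where it stood at 265 and 449 CPM. The endothelial-like value pools clusters of unlike size, with 95 and 1051 cells in that led by Cd274 and Gbp4. Cp was not read by cluster, so a change within clusters cannot be told from this mix. In MuSC-like cells the Cp ratio was 0.14 (0.04 to 0.23), and in the smooth muscle or pericyte-like class -0.26 (-0.49 to -0.03). Trf, which encodes transferrin itself, was lower in FAP-like cells at 69.6 and 111 CPM (ratio -0.67, interval -0.79 to -0.55) and in tenocyte-like cells at 9.63 and 27.0.

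Haptoglobin (Hp), the carrier that presents hemoglobin to Cd163, was past 1.5-fold higher with ATRA+agonist in the 2 classes where it had at least 50 UMIs. It stood at 8.89 and 3.24 CPM in macrophage-like cells (ratio 1.46, interval 0.56 to 2.46) and at 4.08 and 1.10 in FAP-like cells. With fewer UMIs it had 32 and 6 in tenocyte-like cells and 1 and 10 in endothelial-like cells, the latter a log2 ratio of -3.11 (-8.55 to -0.30). Hp and Lcn2 were also among the 10 leading genes of the cluster led by S100a8 and S100a9. Bmp6, the ligand that induces hepcidin in liver, stood at 76.0 and 243 in glial-like cells. The heme exporter Flvcr1 stood at 26.5 and 62.6 among smooth muscle or pericyte-like cells, and the heme synthesis enzyme Alas1 at 17.7 and 40.2 in tenocyte-like cells.

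The other listed genes past 1.5-fold with an interval apart from 0 were Slc25a37, Flvcr2 and Lcn2 in FAP-like cells, Steap4 in tenocyte-like cells and Lrp1 and Nfs1 in glial-like cells, all lower, and Cpox in endothelial-like cells and Slc22a17 in tenocyte-like cells, both higher. By the fold alone, 5 of 42 listed genes were lower and 1 higher in FAP-like cells, 4 and 1 of 29 in tenocyte-like, 6 and 1 of 24 in glial-like, 0 and 1 of 31 in macrophage-like, and 0 and 0 of 29 in MuSC-like cells. Over all genes the share lower was 6.55% in FAP-like, 9.28% in tenocyte-like and 8.86% in glial-like cells, and the share higher 3.05%, 5.61% and 6.44%. The counts were 1 and 1 of 32 in endothelial-like and 1 and 1 of 21 in the smooth muscle or pericyte-like class. For endothelial-like cells the shares over all genes were 3.94% lower and 6.12% higher. The same shares were 8.53% and 6.98% (smooth muscle or pericyte-like), 3.92% and 3.7% (macrophage-like), and 4.55% and 6.35% (MuSC-like). The list's median log2 ratio ran from -0.18 (glial-like, 0.01 over all genes) to 0.18 (smooth muscle or pericyte-like, 0.03 over all genes).

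The genes with the most similar order across classes were named by Pearson's correlation of log2(CPM + 10) over 8 classes with at least 50 cells in each library, among 13614 genes. Over so few points, which share the libraries, high values are common and are given as a description. Cd163 was most like Alox5ap, Gm14548 and Adgre1 (r = 0.9996, 0.9995 and 0.9995), and Slc11a1 most like Cd300a, Slc15a3 and Csf1r (0.995, 0.989 and 0.984). Slc40a1 was most like Six4, Gpx3 and Foxp2 (0.975, 0.971 and 0.957). Ftl1 was most like Ctsb, Krt80 and its own copy Ftl1-ps1 (0.986, 0.980 and 0.968), and Fth1 most like Atpsckmt, Tgfbi and Rrbp1 (0.984, 0.966 and 0.958). For Ncoa4 they were Cbl, Commd4 and Nedd8, for Tfrc Dcaf11, Camk2g and Usp39, for Slc11a2 Guca1a, Ntpcr and Matk, and for Hmox1 Ropn1l, Mybpc2 and Hs6st1, with r from 0.953 to 0.991.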

How the data were processed

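Single-cell suspensions were sorted on propidium iodide and captured with a 10x Genomics 3′ kit. The authors deposited raw UMI counts per gene and barcode made with Cell Ranger 7.2.0, as the matrix header states; the genome build was mm10. Barcodes with 300 to 5000 genes, under 20% mitochondrial and under 0.25% Hbb UMIs were kept, and the 7.5% most doublet-like per library were removed by a score from simulated doublets (a rebuilt form of the study's step). Counts were scaled to 10000 UMIs per cell, logged, reduced to 30 components of 2000 variable genes without the 9 members and the iron list, and clustered (Louvain, 20 neighbours, resolution 0.8; Python 3.11.15, igraph 0.11.9). Clusters were named from fixed markers. Thresholds for leaving mixed clusters unnamed were set after the clusters were seen, so class edges can differ from the study's.

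UMIs were summed per class and library. Intervals are exact Poisson (levels), Clopper-Pearson (shares) and exact conditional (ratios) at 95%, for counting error only. A call is 1.5-fold with at least 50 UMIs over both libraries. A count of 0 is read as up to 3 counts. For shares, cells were thinned to 1000 UMIs, which left out 719 and 324 shallower cells. With 1 library per group, no test was run. The routines were tested on simulated data. The members and lists were chosen with earlier results of these data known. Named were all 9 members, listed iron and heme genes past 1.5-fold with at least 50 UMIs and an interval apart from 0, the 3 genes most correlated with each member over classes (200 UMIs or more), and ferritin copies; other genes were named after their values were seen. Hairpins were read from GENCODE transcripts on GRCm38.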

Additional observations from a re-analysis of the deposited data

Results flagged for a closer look

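The ferritin chains had treatment ratios on both sides of 0, each with a counting interval apart from 0, in different classes. For Fth1 the log2 ratio was 0.0575 in endothelial-like cells and -0.31, -0.18, -0.20, -0.33, -0.45 and -0.29 in FAP-like, MuSC-like, macrophage-like, tenocyte-like, smooth muscle or pericyte-like and neural (glial)-like cells. For Ftl1 it was 0.13 in endothelial-like and 0.25 in tenocyte-like cells and -0.0224, -0.10 and -0.0441 in FAP-like, MuSC-like and macrophage-like cells. These ratios pool the clusters of a class. By cluster, the interval of Fth1 included 0 in each endothelial-like cluster (0.06, -0.03 and -0.01). It lay below 0 in each FAP-like and glial-like cluster. The interval of Ftl1 included 0 in each MuSC-like cluster, with -0.05 (-0.12 to 0.02) in the larger one. In endothelial-like cells that of Ftl1 lay above 0 only in the cluster led by Cd274 and Gbp4 (0.23, 0.08 to 0.38). With 1 library per group, the difference between classes was not tested. The sign of Fth1 in endothelial-like cells turned with thinning and with median-of-ratios scaling, and those of Ftl1 in MuSC-like and macrophage-like cells turned in 1 of 16 and 4 of 15 alternatives. Fth1 in glial-like cells turned to 0.23 when cells with over 5000 genes were kept. In hemoglobin-rich barcodes, which lie outside the classes, Fth1 and Ftl1 were above the vehicle library per non-hemoglobin UMI, by 0.23 and 0.53 on the log2 scale.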

How the results depend on the processing

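Filters, cluster resolution, class assignment, depth and scaling were varied, and the 44 log2 ratios were recomputed under up to 17 alternatives each. The alternatives chosen after seeing the data were the limit of 0.1% hemoglobin UMIs, the left-out top cells, the alike weighting of clusters and the left-out interferon-led cluster. The ratios of Hmox1 in macrophage-like (-1.18 to -0.80), FAP-like (-1.12 to -0.94) and tenocyte-like cells (-2.53 to -1.14) and of Tfrc in FAP-like cells (-1.16 to -0.72) stayed past 1.5-fold in every alternative that gave a value, with no minimum of UMIs asked inside the alternative. The counts of pairs past 1.5-fold asked for 50 UMIs inside each alternative too, unless it set another minimum. So counted, the 7 pairs lower were 3 after thinning, 4 with a minimum of 200 UMIs and 4 under the hemoglobin limit, and 5 to 10 in the others. Of the 7 pairs themselves, 6 were still past 1.5-fold lower after thinning, whatever their UMIs, with Cd163 at -0.32 the exception. The count of 0 higher was the same in all. Without that minimum, 3 pairs passed 1.5-fold higher in 1 alternative each: Slc11a2 in endothelial-like cells at 0.63 (hemoglobin limit), and Slc40a1 in FAP-like cells at 0.75 and Ncoa4 in glial-like cells at 1.08 (both thinned). Dividing macrophage-like cells after thinning to 1000 UMIs left few cells with both genes. It turned the ratio of Cd163 in cells with 1 gene to -0.23 and that of Hmox1 in vehicle cells with both genes over neither to -0.16, on 4 UMIs. Ftl1 in the latter contrast turned to -0.12 and Ncoa4 had 0 UMIs, and the treatment ratio of Hmox1 in cells with both genes went from -1.26 to -0.12 (-2.54 to 2.31); the cause was not tested. Of the 690 recomputed ratios, 620 stayed within the counting interval of the reported ratio and 70 did not. Weighting clusters alike gave no value for macrophage-like, tenocyte-like and smooth muscle or pericyte-like cells, each of which was a single cluster. No paired analysis was possible because each group is 1 library, and none could be left out. Genes under 50 UMIs in a class, such as Slc40a1 in macrophage-like cells, are limited by depth.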
